A study of Rattus norvegicus with 12 samples.

Results

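The 10 genes described here encode enzymes that add a sugar or a sulfate group to lipophilic compounds or open their epoxide rings. They were chosen by name and comprise the UDP-glycosyltransferases Ugt2b7, Ugt1a1, Ugt1a6, Ugt2b1 and Ugt8, the cytosolic sulfotransferases Sult1a1, Sult1b1 and Sult1c2, and the epoxide hydrolases Ephx1 and Ephx2. A probe belonged to the set where its RefSeq accession mapped to one of these symbols, which gave 18 of the 61573 probes on the array and 10 of the 15284 genes named on it. Of these, 17 probes passed the filter on dim signals, with at least 1 for each of the 10 genes (every array of 1 group or more had to read the probe well above background). RNA came from the renal cortex of male Sprague-Dawley (Crl:CD(SD)) rats bought at 5 weeks of age, with 3 animals in each of 4 groups and 1 array per animal. Bromodichloromethane (BDCM), a trihalomethane formed when drinking water is chlorinated and a kidney carcinogen in rodents, was given at 200 mg/kg per day for 4 weeks. The groups were BDCM and corn oil in an experiment in which the rats were bled under isoflurane (B103), and BDCM and corn oil in an experiment in which they were bled under CO2-O2 (B92), in each case 24 h after the last dose. Anaesthetic, cohort, slide and scan day go together between the experiments and cannot be told apart.

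UDP-glucuronosyltransferases of the endoplasmic reticulum transfer glucuronic acid from UDP-glucuronate to bilirubin, steroids, bile acids and drugs, and the water-soluble products leave the cell through export pumps. Ugt8 belongs to the same superfamily but transfers galactose to ceramide, the first step in making galactolipids and sulfatides, so the name glucuronosyltransferase does not describe it. Cytosolic sulfotransferases transfer sulfate from the donor PAPS to phenols, steroids and hydroxylated aromatic compounds. Epoxide hydrolases convert reactive epoxides to diols; microsomal Ephx1 acts mainly on foreign epoxides and soluble Ephx2 on fatty acid epoxides. In the kidney much of this conjugation takes place in proximal tubule cells, and transcription of several of the genes is known to respond to the xenobiotic sensors Nrf2, which binds antioxidant response elements, and the Ah receptor, which binds xenobiotic response elements.

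The sequences before the starts of the members that moved most, and of Ugt1a6, a known Ah receptor target in liver, are shown because both sensors act through such regions. RefSeq (build GRCr8) listed promoters for 9 of the 10 genes, with 2 starts for Ephx1. The 250 bases before each start were searched on both strands for the antioxidant response element core TGACNNNGC, found in 10.1% of 33469 promoters of that length, the looser core TGANNNNGC (34.7%), which contains every match of the stricter one, and the xenobiotic response element core GCGTG (25.9%). Capitals mark matches, and each sequence runs 5′ to 3′ on the strand of its gene.
Ephx1, chr13:95275853-95276102, minus strand: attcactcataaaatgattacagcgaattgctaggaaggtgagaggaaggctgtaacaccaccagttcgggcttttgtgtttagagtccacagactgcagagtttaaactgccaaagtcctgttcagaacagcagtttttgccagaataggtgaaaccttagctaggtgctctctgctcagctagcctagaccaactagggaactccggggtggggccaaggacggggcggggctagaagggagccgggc
Ephx1, chr13:95263118-95263367, minus strand: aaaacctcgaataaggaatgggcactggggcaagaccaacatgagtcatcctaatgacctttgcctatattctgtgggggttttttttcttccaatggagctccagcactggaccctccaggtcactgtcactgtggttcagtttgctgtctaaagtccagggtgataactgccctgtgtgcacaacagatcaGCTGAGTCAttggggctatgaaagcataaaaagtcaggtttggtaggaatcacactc
Ugt2b7, chr14:21251285-21251534, plus strand: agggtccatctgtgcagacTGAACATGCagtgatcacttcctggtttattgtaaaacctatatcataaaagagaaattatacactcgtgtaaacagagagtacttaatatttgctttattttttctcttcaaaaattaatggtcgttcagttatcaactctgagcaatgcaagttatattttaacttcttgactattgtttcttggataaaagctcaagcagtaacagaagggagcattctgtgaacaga
Sult1c2, chr9:7436731-7436980, plus strand: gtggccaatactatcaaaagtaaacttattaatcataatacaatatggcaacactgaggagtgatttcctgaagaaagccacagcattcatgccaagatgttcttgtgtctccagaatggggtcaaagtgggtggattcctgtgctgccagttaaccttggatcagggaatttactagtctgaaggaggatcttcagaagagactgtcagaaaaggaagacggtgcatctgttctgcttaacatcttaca
Ugt1a6, chr9:96194768-96195017, plus strand: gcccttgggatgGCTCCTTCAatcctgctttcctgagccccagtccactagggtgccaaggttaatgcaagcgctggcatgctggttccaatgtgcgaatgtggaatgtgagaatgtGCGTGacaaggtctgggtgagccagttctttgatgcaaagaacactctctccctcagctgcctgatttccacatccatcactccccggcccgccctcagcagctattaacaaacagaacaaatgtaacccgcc
The strict antioxidant response element core was matched at 1 of the 10 member starts, in the second Ephx1 promoter shown, beginning 57 bases before the start. The Ugt2b7 sequence held a match of the looser core alone, 231 bases before the start, and the Sult1c2 sequence held none of the 3 motifs. The Ugt1a6 sequence held the looser core 238 bases before the start and GCGTG at 133 bases. Among members not shown, Ugt1a1 held the looser core at 104 and 75 bases and Ugt8 held GCGTG at 31 bases. Sult1a1, Sult1b1 and Ugt2b1 held none of the 3 motifs. A match of letters is a description and shows no binding.

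Signals are given as log2 of the processed spot signal minus the 75th percentile of its array; they can be compared between animals for 1 probe and not between probes. Between 67.4% and 72.5% of the probes on an array were well above background, and 0 to 6 probes were saturated. BDCM was set against corn oil in each experiment and over both, with limma across all 43275 probes that passed the filter and Benjamini and Hochberg's adjustment over all of them; a call means an adjusted p below 0.05.

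The tissue matched its label: all 18 proximal tubule markers were well above background on every array. Their mean level was 4.52 to 5.16 in BDCM rats against 5.80 to 5.84 in oil rats of the isoflurane experiment, and 4.86 to 5.34 in BDCM rats against 5.65 to 5.81 in oil rats of the CO2-O2 experiment. For the mean of both experiments 17 of the 18 were lower with BDCM. In that comparison 17.9% of all probes were called higher and 20.4% lower, and the counts of the other marker lists stand beside these shares. Of 11 markers of the thick limb, distal tubule and collecting duct 1 rose (Slc4a1, 0.38) and 4 fell, led by Slc26a4 (-1.07) and Aqp3 (-0.76); of 9 podocyte and endothelial markers 5 fell, led by Wt1 (-0.59) and Emcn (-0.48); of 10 leukocyte markers 1 rose (Cd14, 0.64) and 1 fell (Cd74, -1.05). In bulk tissue, fewer cells of a type and less RNA per cell cannot be told apart. Transcripts on the hepatocyte list also varied: of 19 markers 15 passed the filter, and 3 of these rose and 5 fell over both experiments. Serpinc1, Tf, F2, Apoc3 and Cyp2c11 were well above background on all 12 arrays, while albumin was on 8. Which cells gave these signals was not tested. Cyp2c11 averaged -4.33 in BDCM and -0.06 in oil rats under isoflurane, and -3.50 against 1.59 under CO2-O2. Tf went the other way, at 3.48 against 2.27 and 3.92 against 3.12. The mean level of the 15 markers pools such opposite moves. It was -2.58 to -1.08 in BDCM rats against -2.27 to -1.30 in oil rats under isoflurane. Under CO2-O2 it was -0.33 to -0.21 against -0.79 to 0.36, so BDCM and oil overlapped in both experiments. Their summed signal, as a multiple of the 75th percentile, was 61.4 to 84.6 in BDCM rats against 113 to 119 in oil rats under isoflurane, and 78.9 to 91.7 against 111 to 120 under CO2-O2, but most of it came from Serpinc1 alone. Without Serpinc1 the sum of the other 14 was 20.2 to 25.6 in BDCM rats against 22.2 to 25.6 in oil rats under isoflurane, and 30.0 to 36.1 against 31.0 to 36.4 under CO2-O2. Albumin (Alb), the defining one, had -0.69, -5.79 and -8.07 in BDCM rats and -6.28, -5.72 and -2.97 in oil rats under isoflurane, where it was well above background in 1 rat of each group. Under CO2-O2 it had 0.60, 1.19 and 1.49 in BDCM rats and 0.79, 1.66 and -1.44 in oil rats, all 6 well above background.

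Over both experiments 3 of the 10 members were called higher with BDCM (Ugt2b7, Ephx1 and Ugt2b1) and 2 lower (Sult1c2 and Ugt8), and the other 5 (Ugt1a1, Ugt1a6, Sult1a1, Sult1b1 and Ephx2) did not pass the test; of all probes, 17.9% were called higher and 20.4% lower. In the isoflurane experiment 2 rose (Ugt2b7 and Ephx1) and 1 fell (Sult1c2), against 13.1% of all probes higher and 12.7% lower. In the CO2-O2 experiment the same 3 genes were called in the same directions and Ugt2b1 was called higher besides, against 9.86% of all probes higher and 9.89% lower. Ugt2b1 passed the filter only through the BDCM rats of the CO2-O2 experiment and so had to differ there; its calls are no support for a rise. Without it, 2 of 9 members were higher and 1 lower in each experiment, and 2 higher and 2 lower over both. The median effect over the 10 members was 0.07 under isoflurane, -0.13 under CO2-O2 and -0.03 for the mean of both, against -0.04 over all probes in each of the 3 comparisons. With so few genes these shares are not set apart from the shares of all probes, and the members are described 1 by 1.

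**Figure D1:**
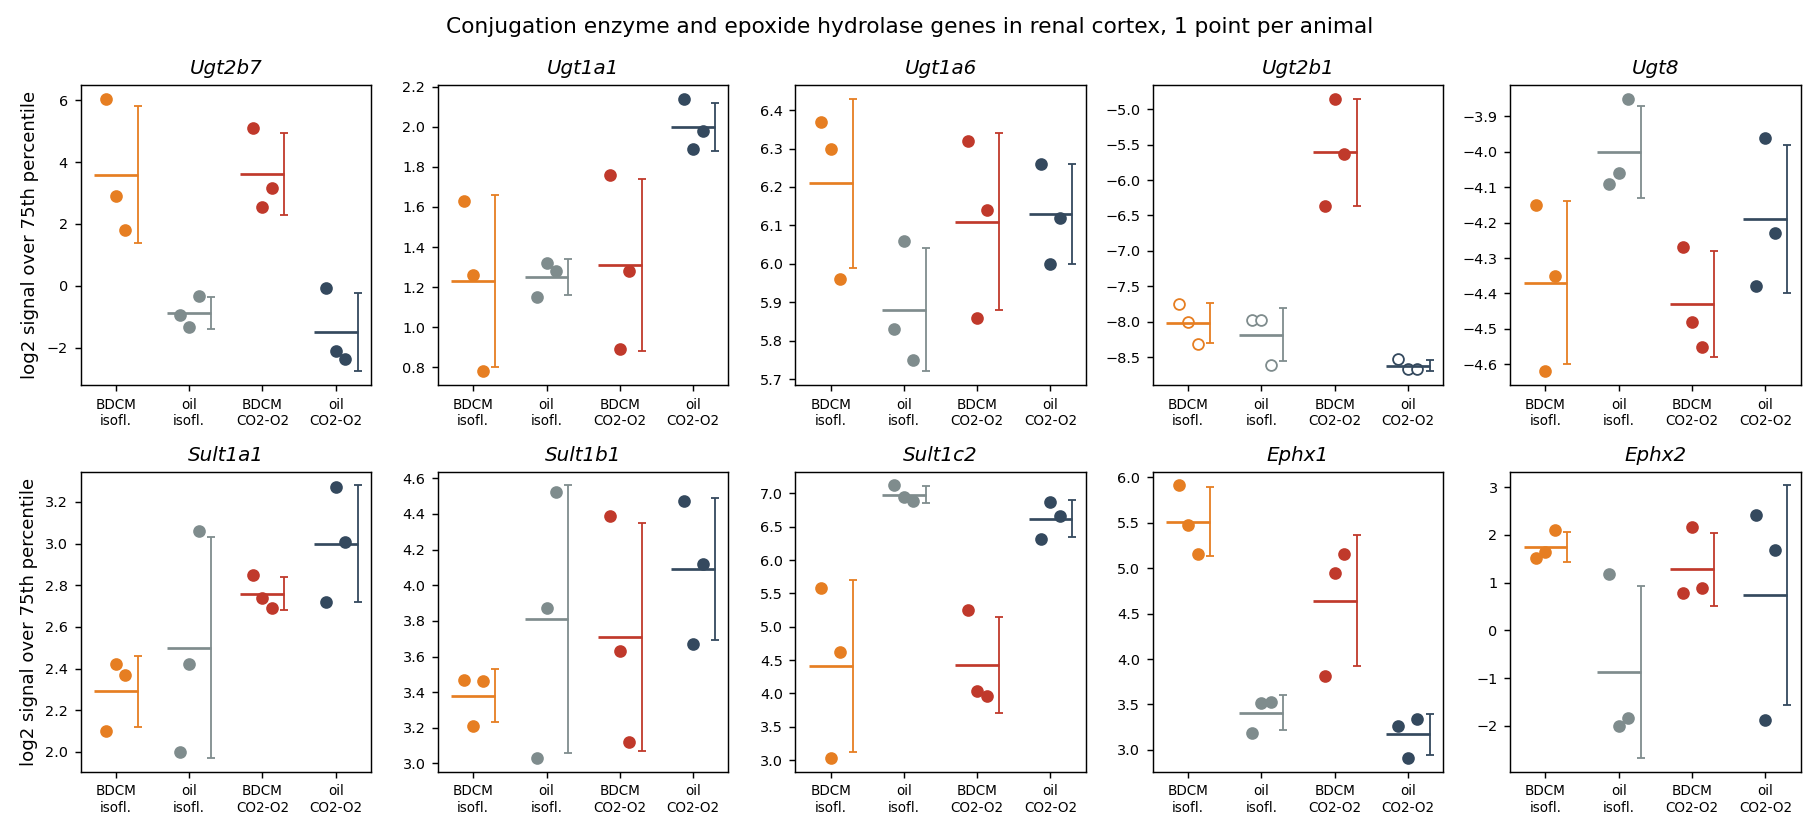
Signal of each member gene (its brightest probe) in every rat, as log2 over the array's 75th percentile, with 1 point per animal, the group mean as a line and its SD as a bar; open points were not well above background, and each panel has its own axis. BDCM rats lie above oil rats for Ugt2b7 and Ephx1 and below them for Sult1c2 in both experiments, and 3 oil rats stand apart for Ephx2.

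Ugt2b7, which glucuronidates steroids, bile acids and many drugs, had the largest rise of the 10. Its single probe read 6.05, 2.91 and 1.79 in BDCM rats and -0.95, -1.33 and -0.32 in oil rats of the isoflurane experiment. It read 5.11, 2.56 and 3.17 in BDCM rats and -0.06, -2.09 and -2.36 in oil rats of the CO2-O2 experiment. Every BDCM rat lay above every oil rat of its experiment, with 1 BDCM rat far above the other two in each. The difference was 4.45 ± 1.06 on the log2 scale under isoflurane (n = 3 against 3, limma adjusted p = 0.0127) and 5.12 ± 1.06 under CO2-O2 (limma adjusted p = 0.00867). Values after ± here and below are SEs from limma. They rest on 1 spread shared by all 4 groups and not on the compared rats alone. As a fold the difference was 21.9 (95% confidence interval 4.30 to 112) and 34.7 (6.80 to 177). Single rats moved these sizes: the difference was 3.22 (9.32-fold; limma adjusted p = 0.0223) without BDCM rat 1 under isoflurane and 5.35 (40.8-fold; 0.00768) without BDCM rat 3. Under CO2-O2 it was 4.37 (20.7-fold; 0.0243) without BDCM rat 1 and 5.84 (57.3-fold; 0.0114) without oil rat 1. The SD within the BDCM groups was 2.21 under isoflurane and 1.33 under CO2-O2, against 0.51 and 1.26 within the oil groups.

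BDCM and oil arrays lay partly on different slides. On the 1 slide of the isoflurane experiment that held both groups (2 BDCM rats and 1 oil rat) Ugt2b7 differed by 4.80, and on that of the CO2-O2 experiment (1 BDCM rat and 3 oil rats) by 4.07. With slide as a fixed block, which leaves the treatment difference to those rats, the call was lost in both experiments (limma adjusted p = 0.0953 under isoflurane and 0.111 under CO2-O2), and with scan day as a block it was lost under CO2-O2 (0.0838), while the call over both experiments was kept. With the hepatocyte marker level as a covariate the differences were 4.82 under isoflurane (limma adjusted p = 0.0049) and 5.28 under CO2-O2 (0.00385). That level pools markers that rose and fell, and it overlapped between BDCM and oil in both experiments. The fit is therefore no test of a part of liver RNA. Without both isoflurane rats with the highest hepatocyte level, one of which was BDCM rat 1, the isoflurane difference was 3.50 (0.037).

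Ugt2b1, a liver glucuronosyltransferase in the rat, was measurable in 1 group. All 6 rats of the isoflurane experiment were not well above background, at -7.75, -8.00 and -8.31 with BDCM and -7.97, -7.98 and -8.61 with oil. In the CO2-O2 experiment BDCM rats had -6.36, -4.85 and -5.63, all well above background, and oil rats had -8.53, -8.66 and -8.67, none of them well above background. Signal was thus at least 1.73-fold higher in BDCM than in oil rats under CO2-O2, the bound being taken against the lowest signal well above background on each array. Between the BDCM groups, signal was dimmer under isoflurane, and that under CO2-O2 was at least 1.15-fold higher. Both bounds are descriptions, given without a test, since the filter kept the probe for its signal in that 1 group. The difference between the BDCM effects of the experiments has no value here, since 3 of the 4 group means are background. The hepatocyte marker mean was -0.33, -0.22 and -0.21 in these BDCM rats of the CO2-O2 experiment and -0.04, 0.36 and -0.79 in their oil controls, where Ugt2b1 was dim.

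**Figure D2:**
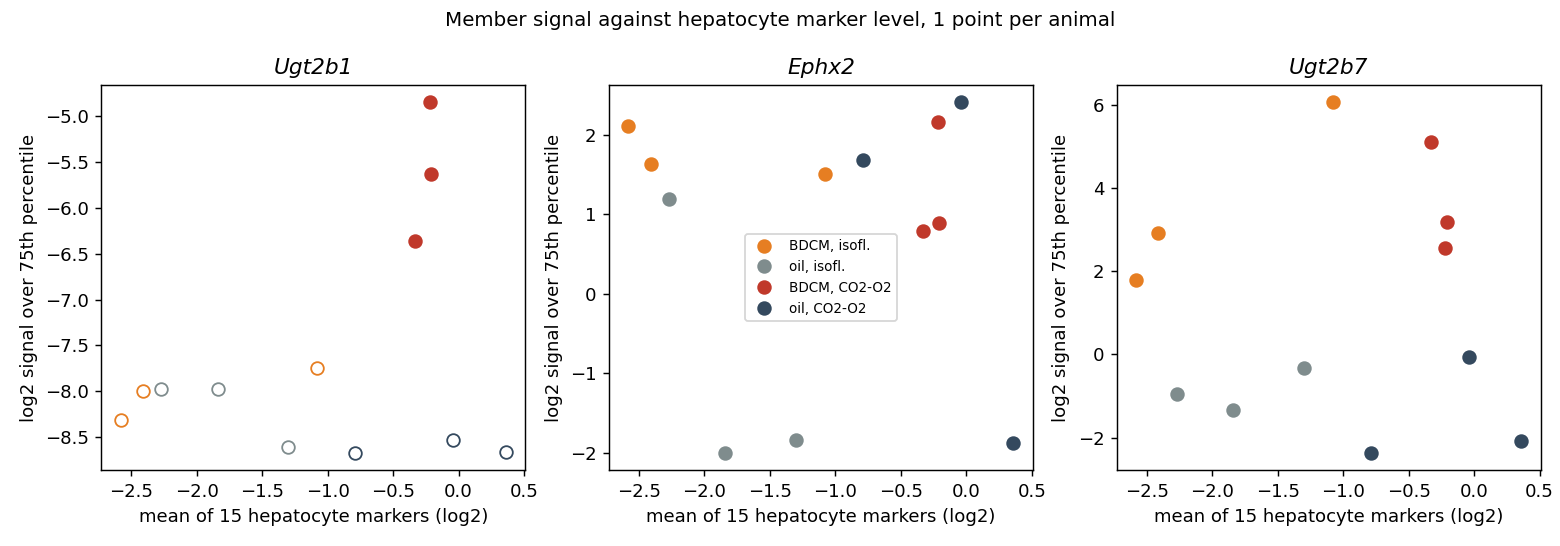
Signal of Ugt2b1, Ephx2 and Ugt2b7 in each of the 12 rats against the mean of the 15 hepatocyte markers that passed the filter, both as log2 over the array's 75th percentile; open points were not well above background. Ugt2b1 is measurable in the 3 BDCM rats of the CO2-O2 experiment and dim in oil rats with hepatocyte levels on both sides of theirs.

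Ugt1a1, the bilirubin-conjugating enzyme, was not called. BDCM rats had 1.63, 1.26 and 0.78 and oil rats 1.15, 1.32 and 1.28 under isoflurane, where the groups overlapped. Under CO2-O2, BDCM rats had 1.76, 0.89 and 1.28 and oil rats 2.14, 1.89 and 1.98, and the groups did not overlap. That difference of -0.69 ± 0.23 did not pass the test (limma adjusted p = 0.0629). It passed under 6 of 29 alternatives. Among these, slide and scan day as a block divide the CO2-O2 arrays alike. Both gave -1.11, which rests on 1 BDCM rat against 3 oil rats. The difference also passed without BDCM rat 1 of the CO2-O2 experiment (limma adjusted p = 0.0194). It passed too without BDCM rat 1 (0.0431) or 3 (0.0395) of the isoflurane experiment. Without BDCM rat 1 of the CO2-O2 experiment the mean of both experiments passed as well (-0.47, limma adjusted p = 0.0322). The same held without BDCM rat 1 under isoflurane (-0.46, 0.0415). The difference between the BDCM effects, 0.67 (95% confidence interval -0.07 to 1.41), was not called (adjusted p = 0.944).

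Ugt1a6, which conjugates small planar phenols, was covered by 3 probes that did not behave alike. The brightest lay between 5.96 and 6.37 in BDCM rats and between 5.75 and 6.06 in oil rats under isoflurane, and between 5.86 and 6.32 against 6.0 and 6.26 under CO2-O2. Its effect over both experiments was 0.16 ± 0.10 (limma adjusted p = 0.265) and that of the next brightest 0.02 ± 0.13 (0.903). Under isoflurane alone the brightest gave 0.33 ± 0.15 (0.128). It passed under 1 of 29 alternatives, scan day as a block (0.46, 0.0308), which drops BDCM rat 3 from this comparison. Leaving that rat out directly gave no call. The third probe, designed to another RefSeq transcript of the gene, rose by 0.51 ± 0.14 (limma adjusted p = 0.0179). Its groups did not overlap under isoflurane and overlapped under CO2-O2. Transcripts of the rat Ugt1 locus share their 3′ exons, so a probe placed there reads several of them; where these probes lie is not given in the sources used here.

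Ugt8, the ceramide galactosyltransferase, had a dim but measurable probe at -4.15, -4.62 and -4.35 in BDCM rats and -4.09, -4.06 and -3.85 in oil rats under isoflurane, without overlap. The CO2-O2 experiment gave -4.27, -4.48 and -4.55 in BDCM rats and -4.38, -3.96 and -4.23 in oil rats, with overlap. The fall of 0.31 ± 0.10 over both experiments was just called (limma adjusted p = 0.0389) and was lost under 17 of 28 alternatives (adjusted p between 0.0204 and 0.274 over all of them). These included leaving out rat 2 or rat 3 of each of the 4 groups, 1 rat at a time, with adjusted p between 0.0565 and 0.0873. Under isoflurane alone the fall was 0.37 ± 0.15 (0.0883), and it passed without BDCM rat 1 (-0.48, 0.0444). A further probe of the gene did not pass the filter.

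Sult1c2, a sulfotransferase of phenolic compounds, had the largest fall. Its brightest probe read 5.58, 3.03 and 4.62 in BDCM rats and 7.12, 6.95 and 6.88 in oil rats under isoflurane. The CO2-O2 experiment gave 5.25, 4.03 and 3.96 in BDCM rats and 6.32, 6.87 and 6.66 in oil rats. All 6 BDCM rats lay below all 6 oil rats, and the BDCM rats spread more widely than the oil rats. The difference was -2.57 ± 0.55 under isoflurane (limma adjusted p = 0.00766), a signal 5.96-fold lower, and -2.20 ± 0.55 under CO2-O2 (adjusted p = 0.02), 4.60-fold lower. The other two probes moved the same way, by -2.34 ± 0.39 (limma adjusted p = 0.00105) and -1.38 ± 0.29 (0.0039) over both experiments, and both were called in each experiment without overlap.

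Without BDCM rat 2 the Sult1c2 difference under isoflurane was -1.89, 3.71-fold lower (limma adjusted p = 0.0127), and without BDCM rat 1 it was -3.16, 8.94-fold lower (0.00173). Within a slide the Sult1c2 difference was -2.57 under isoflurane and -2.58 under CO2-O2. The call under CO2-O2 was lost without BDCM rat 2 (limma adjusted p = 0.0662) or 3 (0.0736), without oil rat 2 (0.0646) or 3 (0.0614), with slide (0.117) or with scan day (0.0852) as a fixed block, and the call under isoflurane with slide as a block (0.146). Over both experiments it was kept under all 28 alternatives, at an adjusted p of at most 0.0315. Sult1c2a, a close relative whose transcript can share signal with these probes, was lower by 0.95 ± 0.27 over both experiments (limma adjusted p = 0.0192), so how much of the change belongs to each gene is uncertain. The 17 proximal tubule markers that fell did so by 0.25 to 1.90, against 2.39 for Sult1c2. Their part in the result was not tested.

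Sult1a1, the main phenol sulfotransferase, and Sult1b1, which sulfates thyroid hormones and small phenols, did not pass the test with any probe. Sult1a1 had 2.10, 2.42 and 2.37 in BDCM rats and 2.00, 2.42 and 3.06 in oil rats under isoflurane, and 2.85, 2.74 and 2.69 against 2.72, 3.27 and 3.01 under CO2-O2. Its effect over both was -0.22 (95% confidence interval -0.59 to 0.15; limma adjusted p = 0.325). Sult1b1 had 3.47, 3.21 and 3.46 in BDCM rats and 3.03, 3.87 and 4.52 in oil rats under isoflurane, and 4.39, 3.63 and 3.12 against 4.47, 3.67 and 4.12 under CO2-O2. The groups overlapped in all of these comparisons. The Sult1b1 effect of -0.40 had an interval of -1.02 to 0.22 (limma adjusted p = 0.283), and its other two probes gave -0.37 and -0.30, so these intervals leave out a change of the size seen for Sult1c2 but not a modest one.

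**Figure D3:**
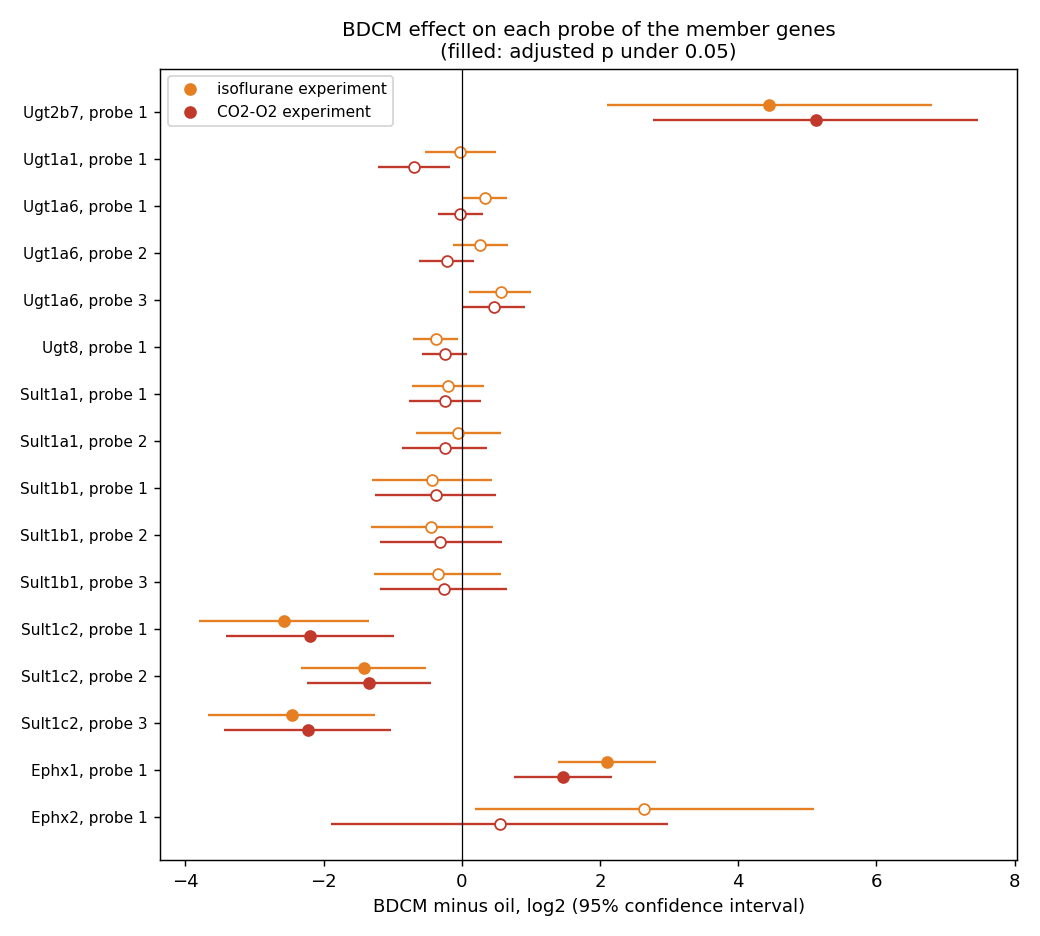
BDCM minus oil, in log2 units with 95% confidence intervals, for the 16 member probes that passed the filter other than that of Ugt2b1, whose oil groups were not above background, with probes of a gene numbered by brightness; orange is the isoflurane and red the CO2-O2 experiment, and filled points had an adjusted p under 0.05. Ugt2b7 and Ephx1 lie to the right and the 3 Sult1c2 probes to the left of 0 in both experiments, and most other intervals include 0.

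Ephx1, microsomal epoxide hydrolase, rose in both experiments. BDCM rats had 5.91, 5.47 and 5.16 and oil rats 3.19, 3.52 and 3.53 under isoflurane. Under CO2-O2, BDCM rats had 3.81, 4.95 and 5.15 and oil rats 3.26, 2.91 and 3.34. All 6 BDCM rats lay above all 6 oil rats, and the lowest of them, BDCM rat 1 of the CO2-O2 experiment, lay 0.47 above the highest oil rat of its experiment. The difference was 2.10 ± 0.32 under isoflurane, a 4.27-fold rise (95% confidence interval 2.61 to 6.99; limma adjusted p = 0.00121), and 1.47 ± 0.32 under CO2-O2, 2.77-fold (1.69 to 4.53; adjusted p = 0.0111). Within a slide it was 2.15 and 1.78. The call under CO2-O2 was lost with slide as a fixed block (adjusted p = 0.0633); that under isoflurane and that over both experiments were kept under every alternative run. The difference between the BDCM effects, isoflurane minus CO2-O2, was 0.63 (95% confidence interval -0.38 to 1.63) and was not called.

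Ephx2, soluble epoxide hydrolase, varied more between oil rats than between treatments. It had 1.51, 1.64 and 2.11 in BDCM rats and 1.19, -2.00 and -1.84 in oil rats under isoflurane, and 0.79, 2.17 and 0.89 in BDCM rats and 2.41, -1.88 and 1.68 in oil rats under CO2-O2. Oil rats fell into a low set of 3, between -2.00 and -1.84, and a high set of 3, between 1.19 and 2.41, with nothing between; the 6 BDCM rats lay between 0.79 and 2.17. All of these signals were well above background. No treatment difference was called: 2.64 ± 1.1 under isoflurane (limma adjusted p = 0.106), 0.55 ± 1.1 under CO2-O2 (0.77), and 1.59 over both (95% confidence interval -0.14 to 3.32; 0.134). Single rats decided this, since without oil rat 1 of the isoflurane experiment the effect over both became 2.11 (adjusted p = 0.0439) and that under isoflurane 3.67 (0.0397), and without oil rat 2 of the CO2-O2 experiment the isoflurane comparison, at 2.64, passed too (0.0369). The hepatocyte marker mean of the 3 low rats was -1.84, -1.30 and 0.36, and that of the 3 high oil rats -2.27, -0.04 and -0.79.

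The BDCM effects in the 2 experiments were compared, isoflurane minus CO2-O2. None of the differences was called: 0 of the 9 members other than Ugt2b1 were called, as were 0% of all probes. The lowest limma adjusted p was 0.0887. An unadjusted p under 0.05 was found for 2125 of the 43275 probes, about as many as that cut passes where no probe differs. Between the oil groups 0 of 10 members were called by their brightest probe, against 10.6% of all probes, and the intermediate Ugt1a6 probe was lower under isoflurane by 0.77 ± 0.18 (limma adjusted p = 0.0237). Ugt1a1 showed -0.75 ± 0.23 there (adjusted p = 0.069), and passed under 6 of 26 alternatives, among them leaving out BDCM rat 1 or 2 of the CO2-O2 experiment or BDCM rat 3 of the isoflurane experiment (0.0424 to 0.0453). Sult1a1 passed there without oil rat 3 of the isoflurane experiment (-0.79, adjusted p = 0.0398). Between the BDCM groups 0 of those 9 members were called, against 16.4% of all probes. The comparisons share their groups and are not independent.

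Other enzymes of the same families give the setting, and their counts over both experiments stand beside 17.9% of all probes called higher and 20.4% lower. Of 17 other glycosyltransferases listed, 5 were measured: Ugt2b15, a steroid-conjugating enzyme, rose 1.79-fold over both experiments (0.84 ± 0.19; limma adjusted p = 0.00583), and Ugt2b35 and Ugt2b37 rose by 0.69 ± 0.16 (0.00692) and 0.66 ± 0.18 (0.0155). Ugt1a2 (0.10 ± 0.11) and Ugt1a9 (-0.46 ± 0.20) did not pass. All 4 measured Ugt2b genes other than the dim Ugt2b1 were thus higher with BDCM over both experiments. Near-identical members of this family can share signal. Dimmer second probes of Ugt2b15 and Ugt2b37 gave larger rises, 1.39 ± 0.25 and 1.69 ± 0.47. In single experiments, the brightest Ugt2b37 probe was not called (limma adjusted p = 0.0795 under isoflurane and 0.101 under CO2-O2). Ugt2b35 was not called under CO2-O2 (0.0662). Of 13 other sulfotransferases 4 were measured. Sult1c3, a gene of the same subfamily as Sult1c2, rose 4.54-fold (2.18 ± 0.31; adjusted p = 4.78e-04).

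Its signal was -0.87, 0.51 and 0.75 in BDCM rats and -2.19, -1.51 and -2.49 in oil rats under isoflurane, and 1.44, 1.05 and 0.62 against -0.97, -0.70 and -1.74 under CO2-O2. The groups did not overlap in either experiment, so Sult1c3 and Sult1c2 moved in opposite directions in the same animals. Sult4a1, a sulfotransferase-like protein best known from brain, rose by 1.5 ± 0.27 (adjusted p = 0.00185), and Sult2b1, which sulfates cholesterol, showed -0.10 ± 0.13. Of 3 measured relatives of the epoxide hydrolases, Ephx4 fell by 0.51 ± 0.11 (adjusted p = 0.00389), and Lta4h (-0.07) and Mest (-0.08) did not pass.

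Of 10 measured genes that supply the co-substrates 1 rose and 2 fell over both experiments, no more than the shares of all probes called: Ugp2, which makes the UDP-glucose from which UDP-glucuronate is formed, rose by 0.93 ± 0.13 (limma adjusted p = 3.63e-04), the sulfate transporter Slc26a1 fell by 0.58 ± 0.10 (0.00175), and Papss2, which makes the sulfate donor PAPS, fell by 0.28 ± 0.10 (0.0472). Ugdh, which oxidises UDP-glucose to UDP-glucuronate, gave -0.00 ± 0.14. A list of 8 genes of glucuronidase, sulfatases and sulfatase-modifying factors had 2 that rose and 1 that fell. The steroid sulfatase gene Sts rose by 0.56 ± 0.12 (limma adjusted p = 0.0039) and the sulfatase-modifying factor Sumf2 by 0.18 ± 0.05 (0.0193). The arylsulfatase Arsb fell by 0.33 ± 0.07 (0.0038). Of 8 genes of galactolipid handling around Ugt8, the sulfatide-making Gal3st1 rose by 0.23 ± 0.08 (adjusted p = 0.0344), and prosaposin (Psap) and Mal each fell by 0.31 (0.00512 and 0.0414).

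**Figure D4:**
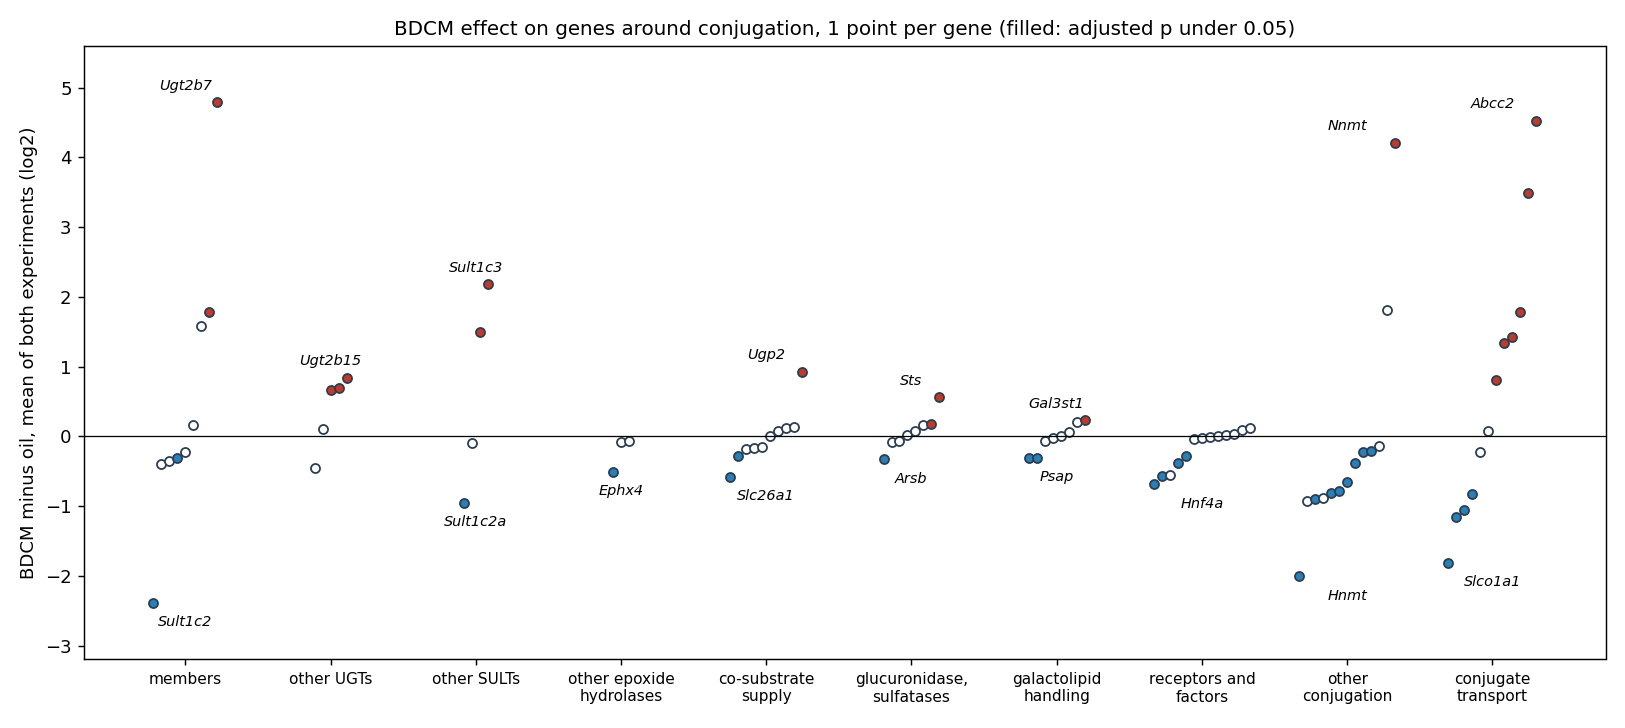
BDCM minus oil over both experiments, in log2 units, for each member other than Ugt2b1 and for the measured genes of 9 lists around conjugation, with 1 point per gene; filled points had an adjusted p under 0.05, red above and blue below 0. Ugt2b7, Nnmt and Abcc2 lie above 4, while the filled points among receptors and factors all lie below 0.

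Of 12 measured genes of efflux and uptake transporters, 6 rose and 4 fell over both experiments. The apical export pump Abcc2 (MRP2), which carries glucuronides and glutathione conjugates into urine, rose by 4.53 ± 0.13 (limma adjusted p = 1.22e-07) with 6.67, 7.08 and 6.36 in BDCM rats and 1.81, 1.89 and 1.78 in oil rats under isoflurane, and 5.66, 5.99 and 5.63 against 1.70, 1.72 and 1.31 under CO2-O2. Abcb1b rose by 3.49 ± 0.26 (5.06e-06), Abcc3 by 1.78 ± 0.13 (4.97e-06) and Abcb1a by 1.43 ± 0.20 (4.47e-04). The uptake carriers Slco1a1, Slc22a6, Slco4c1 and Slc22a8 fell by 1.81 ± 0.30, 1.16 ± 0.18, 1.05 ± 0.28 and 0.82 ± 0.12. Slc22a6 and Slc22a8 are also on the proximal tubule list, which fell with them.

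Of 13 other conjugating enzymes 8 were lower and 1 higher over both experiments, against 20.4% of all probes lower and 17.9% higher. The median effect of the list was -0.66, beside -0.72 for the proximal tubule markers, of which 17 of 18 fell in the same comparison; their part in the result was not tested. The exception was Nnmt, which methylates nicotinamide, at 4.21 ± 0.31 above oil (limma adjusted p = 4.71e-06). Hnmt, the histamine-methylating enzyme, fell by 2.01 ± 0.38 (0.00245), the glycine-conjugating enzyme gene Glyatl1 by 0.90 ± 0.15 (0.0013), the acyl-CoA synthetase gene Acsm2 by 0.81 ± 0.09 (8.36e-05) and Gnmt by 0.78 ± 0.12 (7.77e-04).

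Among 13 receptors and transcription factors of conjugation genes, 4 fell over both experiments and none rose, against 20.4% of all probes lower and 17.9% higher: Hnf4a by 0.69 ± 0.19 (limma adjusted p = 0.0154), Nr1h4 (FXR) by 0.57 ± 0.12 (0.0037), Ahr by 0.38 ± 0.12 (0.0373) and Rxra by 0.28 ± 0.07 (0.00828). The proximal tubule markers fell in the same comparison, and their part in this result was not tested. The transcript of Nrf2 itself (Nfe2l2) gave 0.02 ± 0.06. Of 19 measured Nrf2 target genes 13 rose and 4 fell. Besides Abcc2, these included Gstm1 (3.96 ± 0.23; adjusted p = 1.89e-06), Akr1b8 (3.64 ± 0.61; 0.00112) and Slc7a11 (3.28 ± 0.47; 4.62e-04), with the quinone reductase Nqo1 at 2.67 ± 0.26 (3.60e-05), while the glutathione-synthesis genes Gclc and Gclm fell by 1.12 ± 0.23 (0.00355) and 0.77 ± 0.25 (0.032). Of 5 measured genes of the Ah receptor battery 1, Nqo1, rose, and it is on both lists. Cyp1a1, the classical Ah receptor target, was well above background on 0 of 12 arrays, between -8.37 and -6.06.

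The genes whose signal followed a member most closely over the 12 rats were found by Pearson's r among 12193 genes. The points share their groups, so r reflects the treatment difference as well as differences between animals. Picked as the highest of 12193 values over 12 rats, these r are large in part by selection. The genes closest to Ugt2b7 were Pkd2 (r = 0.95), Oaz3 (0.94) and Dpcd (0.93). For Ephx1 they were Coa3 (0.95), Haus4 and Comtd1 (0.94 each), and for Sult1c2 C1h19orf12, Mx2 and Foxn1 (0.99 each). For Sult1b1, whose fall was not called, they were Ube2b (0.93), Got1 and Ncoa4 (0.84 each). Among the members themselves Ephx1 and Ugt2b7 had r = 0.79, Ephx1 and Sult1c2 -0.82, and Sult1c2 and Ugt8 0.87.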

How the data were processed

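Total RNA of renal cortex was labelled with Cy3 and hybridised to 1-colour Agilent arrays, per the labels. The authors' scanner files hold spot intensity from Agilent Feature Extraction (10.7 in the submitters' processing notes; its build is 10.7.1.1 per the file headers), not scaled between arrays. Set against the scanner signals, the deposited value table is a ratio on a linear scale, processed signal divided by the 75th percentile of its array, without centring. Of its columns 6 equal another animal of the same CO2-O2 group, so animals are numbered by their scanner files and the table served as an alternative. Probe annotation refers to rn4 per the file headers; symbols came from RefSeq (GRCr8), which named 27460 of 33356 probes with an accession.

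Processed signals were put on the log2 scale and each array's 75th percentile was subtracted. Control, spike-in (84) and outlier spots (115 values) were left out. The filter kept 43275 of 61573 probes that every array of some group read well above background, each as its own feature. The model had 1 mean per group over all 12 arrays (limma 3.58.1, R 4.3.3). P-values were adjusted over all probes by Benjamini and Hochberg's method, with a threshold of 0.05. A gene's brightest probe stands for it in counts. The steps were tested on simulated data. With 3 animals a group, the number of arrays limits the precision. Lists are described by counts and medians, with no set test.

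The members and the 16 lists beside them were chosen with earlier results of these data known. From each list up to 4 genes per direction with the largest mean effect among those called were to be named, plus Alb, Nqo1 and Cyp1a1, and 3 genes most like each of 4 members; uncalled relatives and Nfe2l2 were named after their values were seen. One gene of the list of receptors and factors, and a motif searched in promoters, are not reported here. Replicate numbers are not stated to pair animals. Deviations of same-numbered animals correlated at -0.03 to 0.06, and those of differently numbered animals at -0.09 to 0.06. With 3 animals a group these values cannot settle whether animals were paired. Alternatives changed the scaling, background correction (normexp, on median spot signals), filter, probe choice, model and threshold, and left out each animal in turn. Leaving out both isoflurane rats with the highest hepatocyte level was added after seeing the data. Plots were made in Python 3.11.15 (matplotlib 3.10.9).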

Additional observations from a re-analysis of the deposited data

How the results depend on the processing

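Of 1652 comparisons of a member's call with its call under an alternative, 1599 kept their side of the threshold, 30 lost a call, 23 gained one and 0 reversed; 67 values that were never called changed sign. Calls over both experiments for Ugt2b7, Ephx1 and Sult1c2 were kept under all 28 alternatives. Counts that include Ugt2b1 rest on a gene kept for its signal in 1 group. With slide as a fixed block, 1 member was higher in each experiment, 0 were lower under isoflurane and 1 lower over both. The higher member was Ephx1 under isoflurane and Ugt2b1 under CO2-O2, where its call is no support for a rise. Under CO2-O2 the member called lower was Ugt1a1 in place of Sult1c2. Probes called numbered 3253 under isoflurane, 3820 under CO2-O2, 10389 over both and 16 for the difference of effects. The slide block rests on 1 oil rat under isoflurane and 1 BDCM rat under CO2-O2. The scan day block rests on that same BDCM rat under CO2-O2 and drops BDCM rat 3 from the isoflurane comparison. With scan day as a block the counts were 4968 under CO2-O2 and 25 for the difference, where 1 member (Ugt2b1) was lower. Members lower over both experiments numbered 1 with quantile normalization, median scaling, normexp, no filter, the mean of probes, eBayes trend, the replicate block, and at an adjusted p of 0.01 or with a 2-fold minimum, since the Ugt8 call was lost (for scan day too, where Ugt1a1 was called instead); eBayes trend gave 2 lower under CO2-O2. At an adjusted p of 0.01 the members were 1 higher under isoflurane and 0 lower under CO2-O2, and probes called numbered 5261 under isoflurane, 3483 under CO2-O2, 10260 over both, 1253 between oil groups and 1999 between BDCM groups. With a 2-fold minimum the probes called numbered 2720, 1592, 2278, 503 and 611 in the same order. For the difference of effects 1 probe was called with quantile normalization, with the hepatocyte covariate, and without both isoflurane rats with the highest hepatocyte level, against 0 as reported. Between oil groups 1 member was lower with median scaling, array weights, the 2 groups alone or without those 2 rats, and probes numbered 8155 with array weights, 20 with the hepatocyte covariate and 2109 without those rats, against 4582. Between BDCM groups 0 members were lower with the hepatocyte covariate or the filter on all 12 arrays, and probes numbered 4626 with no filter, 1214 with the 2 groups alone, 13 with the covariate and 3543 without those rats, against 7077. The hepatocyte level lay between -2.58 and -1.08 on the isoflurane arrays and between -0.79 and 0.36 on the CO2-O2 arrays. Between the experiments the covariate and the experiment itself therefore cannot be told apart. The cause of these shifts was not tested. Leaving out 1 rat at a time gave 0 to 2 members lower under CO2-O2, 1 to 2 lower under isoflurane, 1 to 3 lower over both, and 0 to 1 lower between oil groups; probes called ranged over 4830 to 9799 under CO2-O2 (over 1.5 times fewer without oil rat 1, 2 or 3 or BDCM rat 3 of that experiment), 6849 to 11483 under isoflurane (fewest without BDCM rat 2), 0 to 1 for the difference, 1844 to 5102 between oil groups (fewer without any 1 oil rat) and 4249 to 6289 between BDCM groups (fewest without BDCM rat 3 of the CO2-O2 experiment, and 4565 without BDCM rat 1 under isoflurane). The replicate block gave 5866 probes under CO2-O2, 8400 under isoflurane and 14304 over both, against 8548, 11196 and 16560, and among the members ended the Ugt8 call alone (adjusted p = 0.0772). Blocking by the value table's numbers gives the same blocks and was not run apart. Slide, scan day and replicate blocks give no value between experiments, and the 2 groups alone none for the mean or the difference of effects.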
